A study of Mus musculus with 45 samples.

Results

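The Cyp2 genes outside the Cyp2b subfamily were followed in mouse liver by mRNA sequencing. They were taken as every row of the gene count tables whose symbol is Cyp2, a subfamily letter other than b, and a number, which gave 43 of the 23227 genes listed. They belong to 12 subfamilies: 15 Cyp2c genes, 9 Cyp2d, 7 Cyp2j, 4 Cyp2a, and 1 gene each of Cyp2e, Cyp2f, Cyp2g, Cyp2r, Cyp2s, Cyp2t, Cyp2u and Cyp2w. Of the 43, 36 had enough reads to be tested. The other 7 (Cyp2c65, Cyp2c66, Cyp2j8, Cyp2j11, Cyp2j12, Cyp2t4 and Cyp2w1) were at or close to no reads, and Cyp2j12 and Cyp2w1 had no read in any library.

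The 45 libraries came from livers of wild-type C57BL/6J mice that were 24 weeks old and had been starved overnight. A high-fat diet (HFD) was given for 16 weeks from 8 weeks of age or for 6 weeks from 18 weeks of age, and the reference mice ate chow, so the length of HFD feeding and the age at its start cannot be told apart. On 16-week HFD and on chow, livers were taken 15, 30, 60 and 120 min after an intraperitoneal injection of 1 U/kg insulin. On all 3 diets there were livers of mice given metformin in drinking water at 270 mg/kg/day, and livers of mice with neither agent, called basal here. Each of the 14 groups had 3 libraries except 30 min of insulin on 16-week HFD, which had 6. The labels give neither the sex of the mice nor a statement that replicates are separate animals, so p-values measure the spread between these libraries, which may be technical.

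Cyp2 enzymes are haem monooxygenases of the endoplasmic reticulum that take electrons from the reductase Por. Hepatocytes use them to oxidise drugs, ethanol, steroids, fatty acids and bile acids, and in rodents several members differ between the sexes through the pattern of growth hormone. Related members lie side by side in clusters that arose by duplication. On the mm9 build the Cyp2c genes span chr19:39081509-44103737, the Cyp2d genes chr15:82200957-82624675, the Cyp2j genes chr4:95709351-96330810 and the Cyp2a genes chr7:27092211-27821834. Duplication leaves near-identical stretches: more than 20% of the 40-base words of 17 members, 15 of them tested, also occur in another gene's transcripts. The share was 66.4% for Cyp2c40, 59.9% for Cyp2c67, 59.8% for Cyp2c69, 52.0% for Cyp2c68, 48.4% for Cyp2a4, 46.0% for Cyp2a5, 42.8% for Cyp2d10, 33.4% for Cyp2c54, 28.1% for Cyp2d9, 26.2% for Cyp2a22 (all with Cyp2a12), 23.6% for Cyp2c50 and 20.7% for Cyp2d40, so the levels of single members of these groups are uncertain.

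The 150 bases before the annotated starts (RefSeq, GRCm38.p6) are printed for paralogs that carry the diet and metformin results below, so that near-identical neighbours can be told apart. Capitals mark CAAAGTCC, the core of a site type bound by the nuclear receptor Hnf4a, on either strand. The first pair is from chr7:26307042-26307191 and chr7:26835189-26835338, both on the plus strand.
Cyp2a4: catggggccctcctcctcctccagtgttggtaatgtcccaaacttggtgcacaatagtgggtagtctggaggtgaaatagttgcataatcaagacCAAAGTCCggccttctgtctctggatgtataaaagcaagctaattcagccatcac
Cyp2a5: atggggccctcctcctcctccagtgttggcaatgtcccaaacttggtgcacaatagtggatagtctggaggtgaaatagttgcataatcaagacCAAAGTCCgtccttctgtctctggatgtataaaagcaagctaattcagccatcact
These 2 sequences were identical at 146 of 149 aligned positions (98.0%). The next 3 are Cyp2d genes at chr15:82452227-82452376 (plus strand), chr15:82764123-82764272 (minus strand) and chr15:82794246-82794395 (minus strand).
Cyp2d9: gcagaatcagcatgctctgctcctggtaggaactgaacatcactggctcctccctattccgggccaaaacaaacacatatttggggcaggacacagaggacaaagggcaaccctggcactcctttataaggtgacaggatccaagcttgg
Cyp2d40: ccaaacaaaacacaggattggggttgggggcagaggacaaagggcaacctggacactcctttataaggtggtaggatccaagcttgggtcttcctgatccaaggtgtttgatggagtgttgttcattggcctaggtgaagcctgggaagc
Cyp2d26: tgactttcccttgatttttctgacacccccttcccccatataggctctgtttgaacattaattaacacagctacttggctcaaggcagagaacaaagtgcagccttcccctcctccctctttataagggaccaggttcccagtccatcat
Cyp2d9 and Cyp2d40 overlapped, with their annotated starts offset, over 88 aligned positions of which 74 were identical (84.1%). The last 3 are Cyp2c genes on the minus strand, at chr19:39812815-39812964, chr19:39886770-39886919 and chr19:39649043-39649192.
Cyp2c40: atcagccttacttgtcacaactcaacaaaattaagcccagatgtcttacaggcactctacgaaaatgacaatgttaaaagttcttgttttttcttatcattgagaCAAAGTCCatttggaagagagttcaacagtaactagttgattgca
Cyp2c69: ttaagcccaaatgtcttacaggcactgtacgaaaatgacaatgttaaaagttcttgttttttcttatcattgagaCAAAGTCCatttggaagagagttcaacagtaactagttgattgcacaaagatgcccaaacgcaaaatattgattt
Cyp2c67: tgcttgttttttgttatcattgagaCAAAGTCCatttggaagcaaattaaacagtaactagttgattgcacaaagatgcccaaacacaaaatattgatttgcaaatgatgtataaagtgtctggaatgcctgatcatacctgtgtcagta
Cyp2c40 and Cyp2c69 were identical at 118 of 120 aligned positions (98.3%).

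Within 250 bases before the start, CAAAGTCC was found in 9 of the 35 members with a promoter entry: Cyp2a4, Cyp2a5, Cyp2c40, Cyp2c65, Cyp2c66, Cyp2c67, Cyp2c68, Cyp2c69 and Cyp2c70. It was present in 1.2% of all 32851 promoters in the table, a share of promoter entries, whereas members were counted by gene. Where aligned, the promoters of Cyp2a4 and Cyp2a5 were 98% identical. Those of Cyp2c40, Cyp2c67, Cyp2c68 and Cyp2c69 were 90.3% to 98.3% identical to each other. The hits in these members are therefore not separate occurrences. AGGTCA, part of many nuclear receptor sites, was found in 6 members (Cyp2c29, Cyp2c39, Cyp2c70, Cyp2f2, Cyp2j5 and Cyp2t4) and 14% of all. TTCNNNGAA, the word bound by Stat5, was found in 2 members (Cyp2j11 and Cyp2j12) and 7.02% of all. TTATGTAA, a D-box word, and TTGCGCAA, a C/EBP word, were in 0 of the 35 members, against 0.819% and 0.164% of all promoters. Both strands were searched, no 2 different motifs overlapped in a member, TTCNNNGAA reads the same on both strands, and CAAAGTCC was chosen after the sequences had been read.

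Counted reads per library were 18.2 to 50.3 M, of which 1.11% to 2.42% fell on the 43 genes. The 6 hepatocyte markers summed to 69688 to 150322 CPM (counts per M counted reads, scaled by TMM). Some libraries stood apart. At 30 min of insulin on 16-week HFD, replicates 1 to 3 gave 1.31% to 1.36% of their reads to the family, and replicates 4 to 6 gave 2.02% to 2.21%. Of the 36 tested members, 19 were lower and 3 higher in all of replicates 1 to 3 than in all of replicates 4 to 6, where 22.01% and 20.14% of all 14067 tested genes did so. Replicate 1 at 60 min on chow also gave a low share, 1.11%. Pancreatic acinar markers reached 17762 CPM in 1 library at 15 min and 7378 CPM in 1 library at 30 min on 16-week HFD. In bulk liver, fewer cells of a type and less RNA per cell cannot be told apart.

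**Figure D1:**
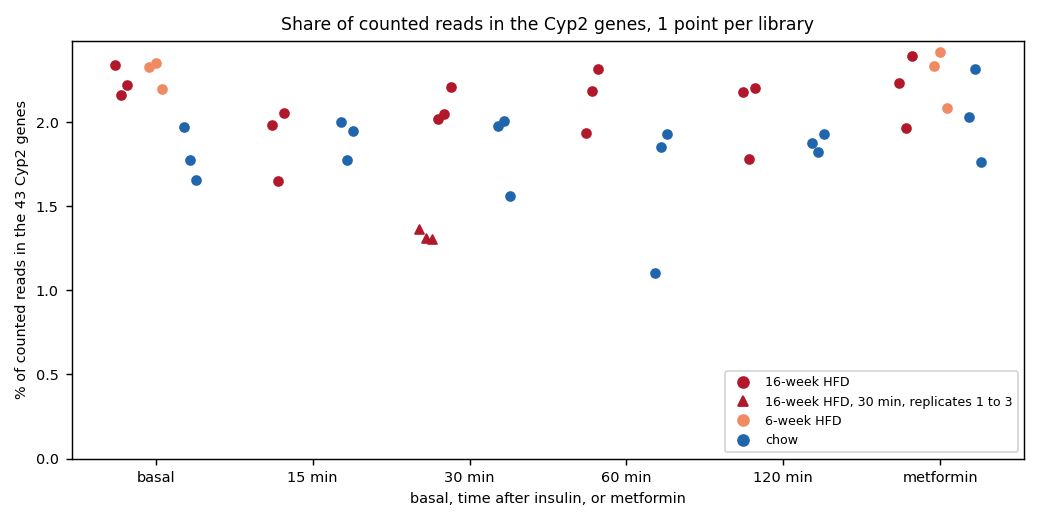
Percent of counted reads that fell on the 43 Cyp2 genes in each library, by diet and treatment. Triangles are the 3 libraries at 30 min on 16-week HFD that lie at 1.31% to 1.36%, below the other 3 of their group at 2.02% to 2.21%.

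Levels are given first per kb of exon, the scale on which genes can be compared. Cyp2e1, which oxidises ethanol, acetone and paracetamol, averaged 6245 ± 1390.5 CPM per kb (SD, n = 45) and took 54.7% of the family's reads. It was followed by Cyp2d9, a testosterone 16-alpha-hydroxylase, at 939.8 ± 367 CPM per kb, and by Cyp2d26 at 576 ± 102, Cyp2f2, which bioactivates naphthalene, at 474 ± 76.2, Cyp2d10 at 435 ± 98.8 and the coumarin 7-hydroxylase Cyp2a5 at 343 ± 165 CPM per kb. After Cyp2e1, each of these differed from the next by less than the larger of their SDs. In their own subfamilies the highest were also Cyp2c29, an arachidonic acid epoxygenase, at 323 ± 87.4 CPM per kb, and Cyp2j5, another epoxygenase, at 166 ± 31.6. The vitamin D 25-hydroxylase Cyp2r1 (5.04 ± 1.47) and the fatty acid hydroxylase Cyp2u1 (5.14 ± 1.59) were low. Cyp2g1, known from olfactory mucosa, and Cyp2s1, known from tissues outside the liver, were at 0.343 ± 0.241 and 0.211 ± 0.142 CPM per kb.

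The members also differed in how far they varied between libraries. Cyp2d22, the mouse gene nearest to human CYP2D6, Cyp2a12 and Cyp2f2 spanned 1.94-fold, 1.99-fold and 2.00-fold between their lowest and highest libraries. Cyp2c54 spanned 27.3-fold, Cyp2j9 10.1-fold, Cyp2a4 9.83-fold and Cyp2d40 8.36-fold. Cyp2d12, at a median of 0.721 CPM, spanned 80.0-fold, with its lowest library at 0.0476 CPM.

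**Figure D2:**
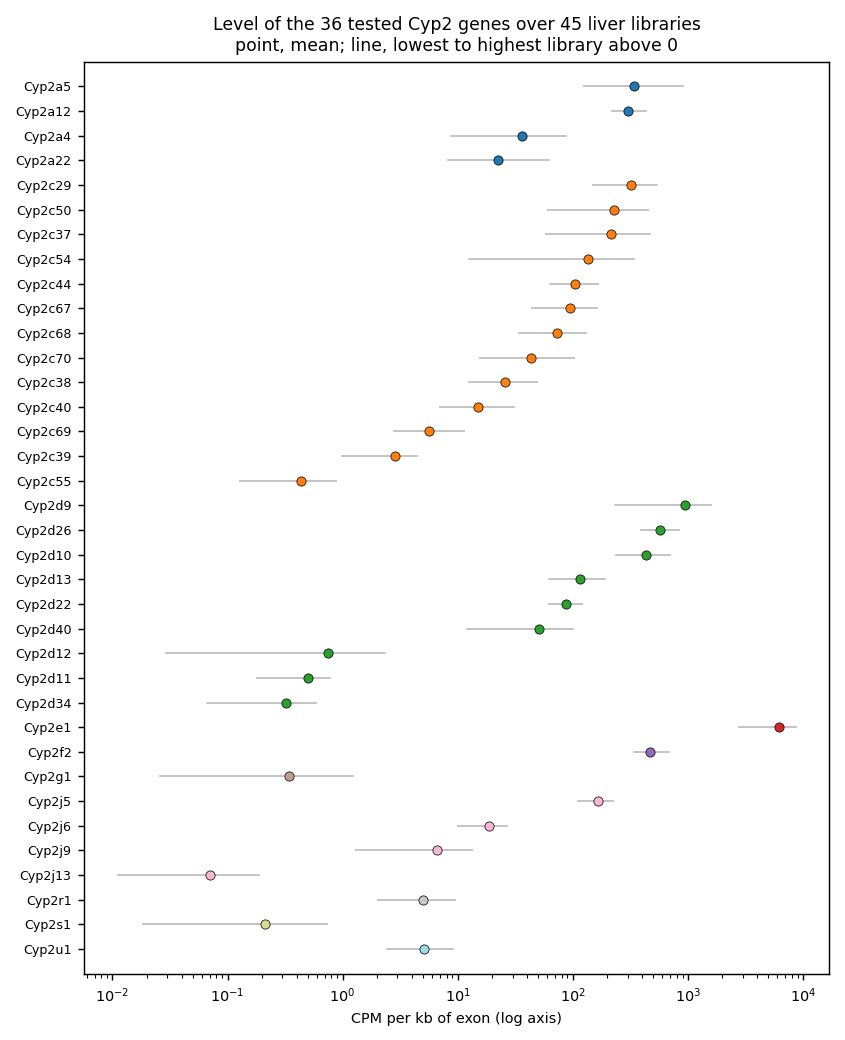
Mean level (points) and range over the 45 libraries (lines, zeros left out) of the 36 tested Cyp2 genes in CPM per kb of exon on a log axis, grouped and coloured by subfamily. Cyp2e1 stands at 6245 CPM per kb, above every other member.

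The first comparison asked how the basal liver differed after 16 weeks of HFD. Of the 36 tested members, 9 rose and 4 fell, beside 32.3% of all tested genes called (16.0% higher and 16.3% lower). The rises were in Cyp2a22, Cyp2a4, Cyp2a5, Cyp2c70, Cyp2d12, Cyp2d22, Cyp2d26, Cyp2d40 and Cyp2u1, and the falls in Cyp2c67, Cyp2c68, Cyp2d9 and Cyp2j9. Without chow replicate 3, or without HFD replicate 3, 8 members were called. For all 13 the 3 HFD livers lay entirely on one side of the 3 chow livers, as they did for 95.9% of all called genes, and among all 36 members this held for 15 (41.7%), beside 48.2% of all tested genes. The median log2 fold change of the 36 members was 0.20, against 0.02 for all tested genes, and the members ranged from -1.68 to 3.53. The test was edgeR's quasi-likelihood F test with Benjamini-Hochberg adjustment over all 14067 genes, and every adjusted p below is from it.

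Cyp2d40 (chr15:82590263-82594552, mm9, minus strand) had 111, 106 and 73.0 CPM in 16-week HFD livers, against 25.7, 25.0 and 22.7 CPM in chow livers. The lowest HFD library was above every chow library, a log2 fold change of 1.98 ± 0.22 (SE, adjusted p = 3.58e-08). Its neighbour Cyp2d26 (chr15:82620537-82624675) had 1369.8, 1149 and 1141 CPM on HFD, against 832, 717 and 715 CPM on chow, a smaller but equally separate rise of 0.69 ± 0.12 (adjusted p = 3.67e-05). Cyp2d22 had 281, 276 and 275 CPM on HFD, against 242, 181 and 172 CPM on chow (0.49 ± 0.19, adjusted p = 0.0438), a call that 8 of 14 alternative fits lost, among them those without any 1 HFD replicate or without chow replicate 2 or 3. The related Cyp2d9 (chr15:82282807-82287257), the most abundant Cyp2d gene, went the other way. It had 1448, 1227 and 1028 CPM on HFD, against 2590.0, 2232 and 2031 CPM on chow, a log2 fold change of -0.89 ± 0.30 (adjusted p = 0.0221). Without chow replicate 1, HFD replicate 2 or HFD replicate 3 its adjusted p passed 0.05, reaching 0.095. Cyp2d12 rose to 3.09, 3.50 and 3.18 CPM on HFD, against 0.451, 0.160 and 0.106 CPM on chow, counts low enough that the fold is loosely fixed (log2 3.53 ± 0.56).

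The Cyp2a cluster rose in 3 of its 4 members. Cyp2a22 (chr7:27716650-27724405) had 69.2, 64.6 and 137 CPM on HFD, against 27.9, 23.9 and 21.8 CPM on chow (1.88 ± 0.27, adjusted p = 2.84e-06). Cyp2a4 (chr7:27092211-27100107), a testosterone 15-alpha-hydroxylase, had 90.8, 92.9 and 148 CPM on HFD, against 32.2, 24.0 and 24.8 CPM on chow (2.03 ± 0.49, adjusted p = 0.00174). Cyp2a5 (chr7:27620358-27628283), whose promoter above differs from that of Cyp2a4 at few positions, had 700, 687 and 1047 CPM on HFD, against 436, 292 and 292 CPM on chow (1.25 ± 0.43, adjusted p = 0.0239). HFD replicate 3 was the highest of the 3 HFD livers for each of these genes, and the Cyp2a5 call was lost without it, or without chow replicate 2 or 3. Because Cyp2a4 and Cyp2a5 share sequence, their sum is the safer value: it was 922 ± 237 CPM on HFD and 367 ± 87.5 CPM on chow (SD, n = 3 each). Cyp2a12 was not called, at 519, 437 and 606 CPM on HFD, against 465, 455 and 446 CPM on chow.

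Among the Cyp2c genes, Cyp2c70, which in mice makes muricholic acids from chenodeoxycholic acid, had 109, 70.8 and 158 CPM on HFD, against 69.4, 42.4 and 35.4 CPM on chow (1.19 ± 0.38, adjusted p = 0.0160). The lowest HFD library was only just above the highest chow library, and the call was lost without chow replicate 2, chow replicate 3 or HFD replicate 3. Cyp2c68 (chr19:39763326-39815591) had 90.5, 86.3 and 98.3 CPM on HFD, against 129, 171 and 177 CPM on chow (-0.79 ± 0.22, adjusted p = 0.00506). Cyp2c67, beside it, had 116, 133 and 115 CPM on HFD, against 147, 190 and 185 CPM on chow (-0.52 ± 0.20, adjusted p = 0.0442), and 7 of 14 alternative fits lost that call, among them those without any 1 HFD replicate or without chow replicate 2 or 3. The arachidonic acid epoxygenase Cyp2c29 had 593, 530 and 588 CPM on HFD, against 593, 613 and 594 CPM on chow (-0.07 ± 0.31).

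Cyp2j9 (chr4:96235120-96258176, minus strand), which in mice makes 19-HETE from arachidonic acid, had the largest fall of the family. It had 9.27, 6.18 and 5.42 CPM on HFD, against 23.1, 17.9 and 25.7 CPM on chow, with no overlap (-1.68 ± 0.32, adjusted p = 0.000115). The abundant Cyp2j5 had 690, 616 and 563 CPM on HFD, against 545, 566 and 511 CPM on chow, and was not called (0.20 ± 0.16). Cyp2u1, whose human counterpart hydroxylates long-chain fatty acids, had 14.3, 15.3 and 18.0 CPM on HFD, against 13.2, 11.7 and 8.12 CPM on chow (0.52 ± 0.17, adjusted p = 0.0180), a call lost without chow replicate 3 or HFD replicate 3. Cyp2e1 had 14222, 11456 and 11403 CPM on HFD, against 10571, 9335 and 8399 CPM on chow. These libraries did not overlap, but the difference of 0.39 ± 0.24 was not called (adjusted p = 0.232). Cyp2f2 (0.33 ± 0.16), Cyp2r1 (-0.38 ± 0.26), Cyp2g1 (0.94 ± 0.69) and Cyp2s1 (0.14 ± 0.68) were not called and their libraries overlapped.

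Several measures moved with the diet groups, and their part in these results was not tested. Pancreatic acinar markers (11 of 11 found) summed to 9.75 to 169 CPM in the 16-week HFD basal livers and 269 to 1654 CPM in the chow basal livers. The 5 macrophage markers found of 6 summed to 201 to 353 CPM on HFD and 159 to 287 CPM on chow, and 5 stellate cell markers to 49.2 to 167 CPM on HFD and 47.3 to 65.7 CPM on chow. Spearman's correlation across genes between a library's deviation and GC content was 0.169 to 0.321 in the HFD livers and -0.287 to -0.0769 in the chow livers. With length and GC trends removed, Cyp2c67 and Cyp2d22 were no longer called, while Cyp2a22, Cyp2a4, Cyp2c68, Cyp2d12, Cyp2d26, Cyp2d40 and Cyp2j9 were called in all 14 alternative fits.

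**Figure D3:**
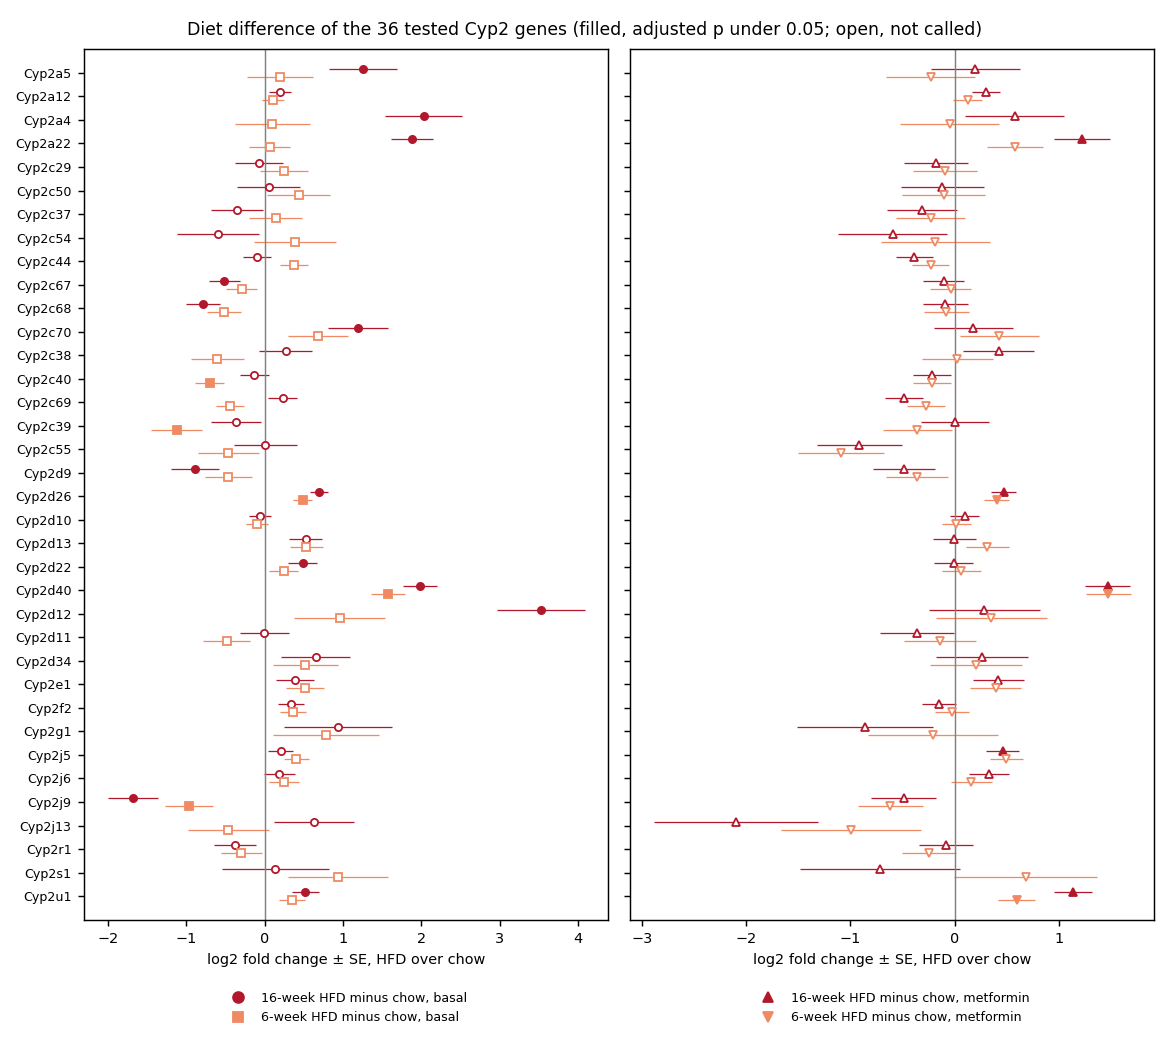
Log2 fold change ± SE, HFD over chow, of the 36 tested Cyp2 genes in basal livers (left) and under metformin (right), for 16-week and 6-week HFD. Filled symbols are called, and Cyp2d40 is filled in all 4 comparisons, at 1.98, 1.58, 1.47 and 1.47.

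After 6 weeks of HFD 2 members rose and 3 fell, beside 11.0% of all genes called (5.98% higher and 5.03% lower), and 3 members were called without chow replicate 3. Cyp2d40 had 80.8, 64.9 and 73.4 CPM on 6-week HFD, against the chow values above (1.58 ± 0.22, adjusted p = 8.21e-06). Cyp2d26 had 1116, 1082 and 968 CPM (0.48 ± 0.12, adjusted p = 0.00710). Both were above every chow library and were called in all 14 alternative fits. Cyp2j9 had 13.9, 13.6 and 6.66 CPM, below every chow library (-0.97 ± 0.30, adjusted p = 0.0345), but 5 of 14 alternative fits lost the call, among them those without 6-week HFD replicate 3, chow replicate 1 or chow replicate 3. Cyp2c40 had 12.7, 19.3 and 19.5 CPM on 6-week HFD, against 22.6, 32.4 and 28.8 CPM on chow (-0.70 ± 0.18, adjusted p = 0.0112), a call lost without 6-week HFD replicate 1 or chow replicate 2. Cyp2c39 was low throughout, at 1.85, 3.88 and 4.61 CPM on 6-week HFD, against 6.47, 7.90 and 8.23 CPM on chow (-1.12 ± 0.32, adjusted p = 0.0198), and its call was lost without 6-week HFD replicate 1 or chow replicate 2 or 3. The skeletal muscle markers ran high in these HFD livers, 3.68 to 1197 CPM on 6-week HFD and 0.584 to 145 CPM on chow, and their part in these values was not tested.

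Cyp2a4 was not called on 6-week HFD: it had 31.4, 37.6 and 18.0 CPM there, against 32.2, 24.0 and 24.8 CPM on chow, with overlap (0.10 ± 0.48). Set directly against each other, 16-week HFD over 6-week HFD called 5 members, all higher, beside 10.2% of all genes (4.18% higher and 6.03% lower). They were Cyp2a22 (1.82 ± 0.27, adjusted p = 0.000208), Cyp2a4 (1.93 ± 0.49, adjusted p = 0.0108), Cyp2d12, Cyp2c40 and Cyp2c69. Cyp2a22 had 69.2, 64.6 and 137 CPM at 16 weeks, against 28.0, 30.8 and 18.4 CPM at 6 weeks. Cyp2d40, which differed from chow at both lengths of feeding, did not pass this test (0.41 ± 0.21, adjusted p = 0.218). The call of Cyp2a4 was lost without 6-week HFD replicate 3, that of Cyp2c69 without 6-week HFD replicate 1 or 3 or 16-week HFD replicate 2, and that of Cyp2c40 without 6-week HFD replicate 1 or 2 or any 1 16-week HFD replicate. In all, 3 members were called without 6-week HFD replicate 1 or without 16-week HFD replicate 2. The 5 calls became 1, Cyp2d12, with a replicate block in a fit of these 2 groups alone.

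After insulin, the diet comparison averaged the 4 times and set 15 libraries on 16-week HFD against 12 on chow. Of the 36 members 12 were higher and 11 lower, beside 59.4% of all genes (31.9% higher and 27.5% lower), so the members' share was close to that of the rest. For 3 of the 36 members (8.33%), Cyp2d40, Cyp2a22 and Cyp2j9, no library of one diet overlapped the other, beside 7.3% of all tested genes. Cyp2d40 had 38.2 at the lowest, 68.6 at the median and 107 CPM at the highest on HFD, against 13.3, 27.8 and 33.3 CPM on chow (1.41 ± 0.11, adjusted p = 4.51e-13). Cyp2a22 had 41.6, 65.9 and 104 CPM on HFD, against 20.2, 28.5 and 37.1 CPM on chow (1.20 ± 0.13, adjusted p = 1.53e-09). Cyp2j9 had 2.56, 6.63 and 9.15 CPM on HFD, against 14, 21.8 and 25.6 CPM on chow (-1.65 ± 0.15, adjusted p = 5.98e-11). All 37 alternative fits called these 3 genes. These libraries share no sample with the basal comparison.

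The other named members overlapped in some libraries. Cyp2d9 had 383, 889 and 1364 CPM as its lowest, median and highest value on HFD, against 938, 2098 and 2636 CPM on chow (-1.04 ± 0.15, adjusted p = 2.21e-07), and 8 HFD libraries were below all chow libraries. Cyp2c68 had 60.3, 81.8 and 153 CPM on HFD, against 128, 153 and 164 CPM on chow (-0.86 ± 0.10, adjusted p = 1.66e-08), and 13 of 15 HFD libraries were below all of chow. Cyp2a4 had 38.6, 76.6 and 139 CPM on HFD, against 15.1, 34.1 and 68.7 CPM on chow (1.21 ± 0.24, adjusted p = 4.44e-05). Its near-twin Cyp2a5 was not called, at 330, 567 and 927 CPM on HFD, against 213, 448 and 774 CPM on chow (0.39 ± 0.21, adjusted p = 0.102). The sum of Cyp2a4 and Cyp2a5 at 15, 30, 60 and 120 min averaged 604, 710, 765 and 589 CPM on HFD. On chow it averaged 587, 328, 482 and 572 CPM, so the diets were close at 15 and 120 min. This sum was not tested. Cyp2u1 had 10.8, 13.7 and 21.1 CPM on HFD, against 5.97, 8.83 and 12.0 CPM on chow (0.74 ± 0.08, adjusted p = 4.03e-09). Cyp2c70 (0.67 ± 0.19), Cyp2c38 (0.57 ± 0.17), Cyp2d13 (0.34 ± 0.10), Cyp2d26 (0.26 ± 0.06) and Cyp2j5 (0.29 ± 0.08) were also higher, and Cyp2c54 (-0.88 ± 0.25), Cyp2r1 (-0.44 ± 0.13) and Cyp2d10 (-0.42 ± 0.07) lower. Macrophage markers summed to 252 to 815 CPM in the HFD libraries after insulin and 121 to 403 CPM in those of chow, and their part in these differences was not tested.

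The size of the diet difference was then read at each time, as estimates without a call. For Cyp2j9 it was -1.84 ± 0.32, -1.56 ± 0.26, -1.57 ± 0.32 and -1.62 ± 0.32 at 15, 30, 60 and 120 min, close to the basal value. For Cyp2d40 it was 1.69 ± 0.22, 0.85 ± 0.19, 1.53 ± 0.22 and 1.55 ± 0.22, lowest at 30 min. For Cyp2d9 it was -0.91 ± 0.30, -1.67 ± 0.25, -0.80 ± 0.30 and -0.80 ± 0.30, largest at the same time. The 30 min point rests on the group with 2 sets of libraries. There Cyp2d9 had 383, 594 and 441 CPM in replicates 1 to 3 and 745, 773 and 1362 CPM in replicates 4 to 6, and Cyp2d40 had 38.2, 52.1 and 52.5 CPM in replicates 1 to 3 and 55.6, 61.0 and 65.2 CPM in replicates 4 to 6. The epoxygenases Cyp2c50 and Cyp2c54 were apart by more, with Cyp2c50 at 179.8, 252 and 183 CPM in replicates 1 to 3 and 663, 781 and 749.8 CPM in replicates 4 to 6. Leaving out either set kept the diet calls of Cyp2d40, Cyp2a22, Cyp2a4, Cyp2c68, Cyp2d9, Cyp2j9 and Cyp2u1.

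**Figure D4:**
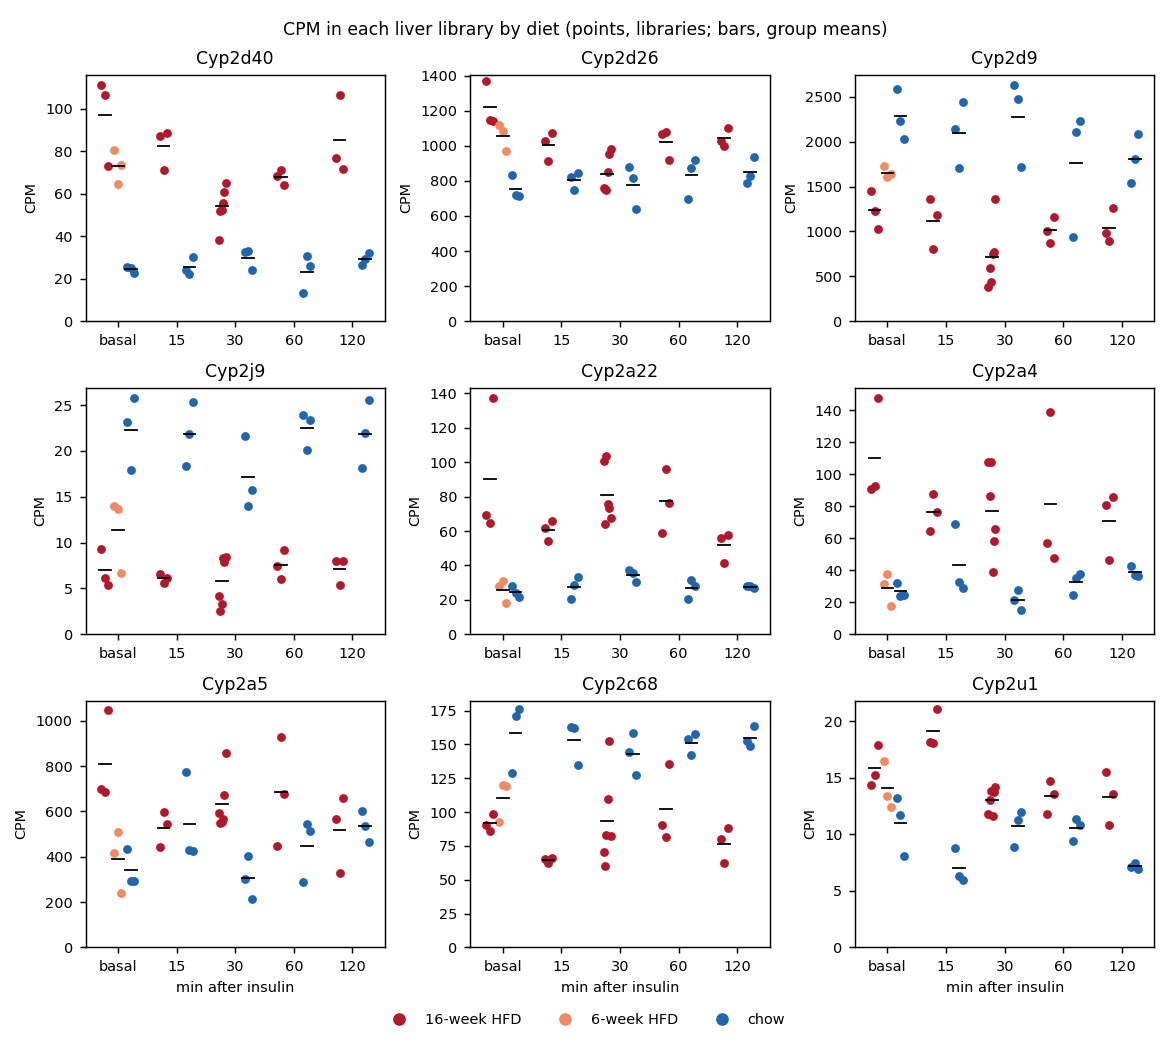
CPM in each library of 9 Cyp2 genes in basal livers and 15 to 120 min after insulin, with 16-week HFD left of chow and 6-week HFD, basal only, between them. Bars are group means. Cyp2d40, Cyp2a22 and Cyp2j9 show no overlap between 16-week HFD and chow among the libraries after insulin.

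Insulin itself called few members. On chow, the joint test of the 4 times against basal called 1 of 36 members, Cyp2u1 (adjusted p = 0.0123), beside 4.83% of all genes. Cyp2u1 had 13.2, 11.7 and 8.12 CPM in basal chow livers, 8.77, 6.32 and 5.97 CPM at 15 min, 8.90, 11.3 and 12.0 CPM at 30 min, 9.41, 11.4 and 10.9 CPM at 60 min and 7.15, 7.44 and 6.95 CPM at 120 min. The 15 and 120 min groups were lowest, and basal replicate 3 lay within the range of the 15 min libraries. The estimates were -0.66 ± 0.17 at 15 min and -0.62 ± 0.17 at 120 min, and the 120 min test by itself called only Cyp2u1 among the members (adjusted p = 0.0289, beside 5.08% of all genes, 2.43% higher and 2.64% lower). With the fit restricted to the groups compared, or with the deposited normalized values in limma, the joint call was lost, and the call at 120 min was lost in 8 of 15 alternative fits, among them those without any 1 of the 120 min libraries or without basal replicate 1 or 2.

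On 16-week HFD the joint test called 3 members, Cyp2d12, Cyp2d26 and Cyp2d40, beside 2.34% of all genes. Each had its lowest group at 30 min, with estimates against basal of -1.87 ± 0.40, -0.54 ± 0.10 and -0.84 ± 0.18. Cyp2d26 had 758, 753 and 746 CPM in replicates 1 to 3 and 853, 953 and 983 CPM in replicates 4 to 6 at 30 min, against 1369.8, 1149 and 1141 CPM in basal livers. Cyp2d12 ran the other way within the group, at 1.16, 1.55 and 1.39 CPM in replicates 1 to 3 and 0.343, 0.510 and 0.400 CPM in replicates 4 to 6. Without replicates 1 to 3, Cyp2d26 and Cyp2d40 were no longer called. The same calls were lost without replicate 1 or 3 alone or without basal replicate 1, which left 1 member, and that of Cyp2d40 also without replicate 4 or basal replicate 2, while 5 members were called without replicate 6. Without replicates 4 to 6, Cyp2d12 was not called and 15 members were, and with only the 16-week HFD groups in the fit 0 were. With the replicate number as a block, in a fit that also lacks replicates 4 to 6, 14 members were called, Cyp2d12 not among them (adjusted p = 0.120). At 120 min on 16-week HFD, edgeR called 0 of 14067 genes and 0 members, although 1176 genes and 4 members had an unadjusted p under 0.05. DESeq2 called 8 genes and limma on the deposited values 0, with 0 members in either. Of the 36 members, 4 had a positive estimate at that time, and 50.7% of all genes did.

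The insulin response differed between diets for 1 member, Cyp2u1 (interaction over the 4 times, adjusted p = 0.0381, beside 0.263% of all genes). At 15 min Cyp2u1 had 18.1, 18.1 and 21.1 CPM on 16-week HFD, against 14.3, 15.3 and 18.0 CPM basal (0.27 ± 0.17). The lowest of these 15 min livers was only just above the highest basal one. On chow the 15 min livers were at 8.77, 6.32 and 5.97 CPM (-0.66 ± 0.17), the larger of the 2 changes. The difference of the 2 responses was 0.93 ± 0.24 at 15 min, -0.24 ± 0.23 at 30 min, -0.18 ± 0.24 at 60 min and 0.37 ± 0.24 at 120 min. In the fit with a replicate block, which lacks replicates 4 to 6 at 30 min, 5 members were called, and 7 were without those libraries and with no block. Of 43 alternative fits, 26 kept the call of Cyp2u1, and the adjusted p ranged from 0.000861 to 0.103. The fits that lost it were those without replicate 2 or 3 of any insulin group on chow, any 1 replicate at 15 min on HFD, HFD replicate 3 at 60 min, HFD replicate 1 or 3 at 120 min, chow basal replicate 2, or HFD basal replicate 1 or 2.

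With metformin, members of one stretch of the Cyp2c cluster rose on each diet. On chow Cyp2c40 and Cyp2c69 rose and Cyp2u1 fell, beside 1.94% of all genes (1.27% higher and 0.668% lower). Without basal replicate 1 on chow 0 members were called, and 1 was without basal replicate 2 or 3 or metformin replicate 2 or 3. Cyp2c40, Cyp2c69 and Cyp2u1 all lost their calls without metformin replicate 3, so the 1 member called there was another. On 6-week HFD Cyp2c40, Cyp2c67 and Cyp2c69 rose, beside 3.17% (1.93% higher and 1.24% lower). On 16-week HFD 5 members rose (Cyp2c40, Cyp2c67, Cyp2c68, Cyp2d10 and Cyp2r1) and 2 fell (Cyp2d12 and Cyp2j13), beside 28.4% (16.9% higher and 11.5% lower), and 4 were called without metformin replicate 1. Over all 36 members the median log2 fold change was 0.26 on chow, 0.16 on 6-week HFD and 0.13 on 16-week HFD, beside 0.01, 0.00 and -0.01 for all genes.

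Cyp2c67, Cyp2c68, Cyp2c40 and Cyp2c69 are neighbours on the minus strand between chr19:39683349 and 39961259 (mm9), and Cyp2c40 is known to make 16-HETE from arachidonic acid in mice. Cyp2c40 had 37.7, 40.6 and 56.0 CPM with metformin on chow, against 22.6, 32.4 and 28.8 CPM in basal chow livers (0.68 ± 0.18, adjusted p = 0.0430), a call that 7 of 14 alternative fits lost, among them those without any 1 basal replicate or without metformin replicate 2 or 3. On 6-week HFD it had 37.7, 40.1 and 37.7 CPM with metformin, against 12.7, 19.3 and 19.5 CPM in basal livers, the highest estimate of the 3 diets (1.17 ± 0.19, adjusted p = 0.000163). On 16-week HFD it had 48.0, 38.5 and 29.2 CPM with metformin, against 25.5, 26.2 and 24.7 CPM in basal livers (0.60 ± 0.18, adjusted p = 0.0149), a call lost without metformin replicate 1 or basal replicate 3. No metformin library overlapped its basal group on any diet. Cyp2c69 had 14.3, 15.4 and 20.1 CPM with metformin on chow, against 7.91, 11.1 and 10.2 CPM (0.78 ± 0.18, adjusted p = 0.0151), a call lost without metformin replicate 3 or basal replicate 1 or 3. It had 13.0, 13.8 and 14.4 CPM with metformin on 6-week HFD, against 7.15, 7.65 and 6.54 CPM (0.95 ± 0.18, adjusted p = 0.00190). On 16-week HFD its libraries overlapped, at 12.0, 13.5 and 10.0 CPM with metformin, against 9.87, 14.1 and 9.97 CPM. Whether these members respond differently between diets was tested by the interaction, which called none of the 4 in edgeR (adjusted p of 0.0909 to 0.656), while DESeq2 called Cyp2c69 (adjusted p = 0.0440).

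Cyp2c67 had 242, 248 and 234 CPM with metformin on 6-week HFD, against 110, 175 and 141 CPM in basal livers (0.77 ± 0.20, adjusted p = 0.0271), and the call was lost without any 1 metformin replicate or without basal replicate 1 or 3. On 16-week HFD it had 264, 222 and 206 CPM, against 116, 133 and 115 CPM (0.92 ± 0.20, adjusted p = 0.000930). Cyp2c68 had 228, 163 and 149 CPM with metformin on 16-week HFD, against 90.5, 86.3 and 98.3 CPM in basal livers (0.97 ± 0.22, adjusted p = 0.00124). Because these 4 genes share 52.0% to 66.4% of their 40-base words with other genes, their sum was also taken. It was 501 ± 75.1 CPM with metformin and 370.3 ± 55.4 CPM basal on chow, 475 ± 16.98 and 277 ± 50.6 CPM on 6-week HFD, and 461 ± 81.5 and 249.9 ± 9.23 CPM on 16-week HFD (SD, n = 3 each). The mean basal sums were lower on HFD than on chow, but the 6-week HFD libraries (222 to 322 CPM) overlapped those of chow (306 to 404 CPM). The 16-week HFD libraries (242 to 260 CPM) did not. The metformin sums of the 3 diets differed by less than the largest of their SDs. These sums were not tested.

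**Figure D5:**
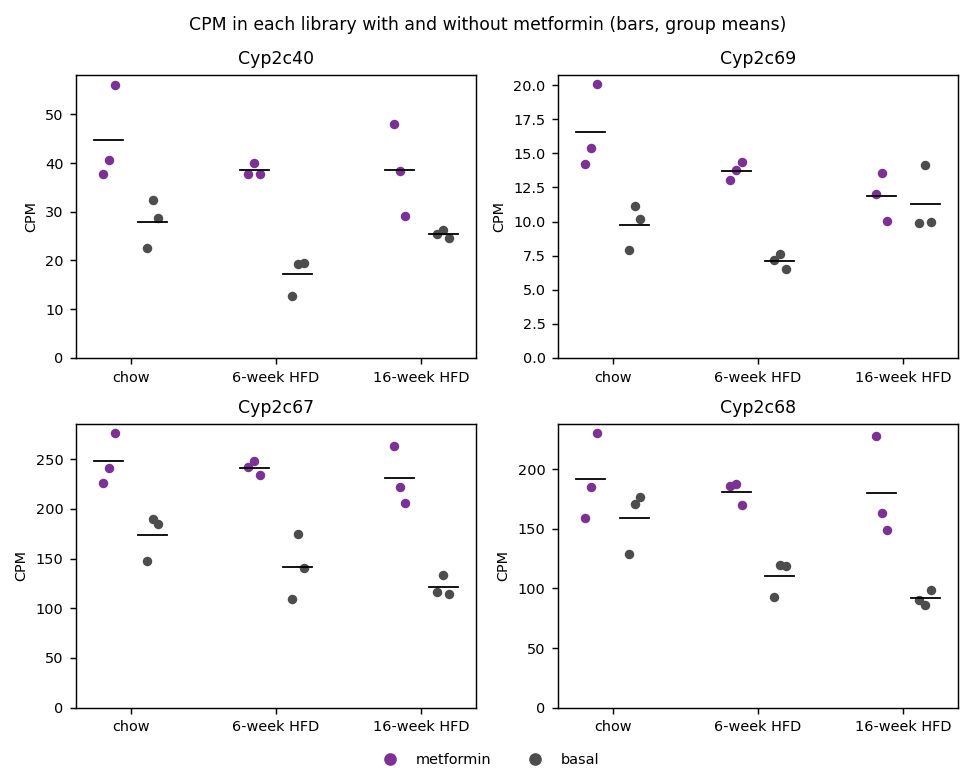
CPM in each library of Cyp2c40, Cyp2c69, Cyp2c67 and Cyp2c68 with metformin (left of each pair) and without, on the 3 diets, with bars at group means. Cyp2c40 with metformin lies above its basal libraries on every diet, and Cyp2c69 does so on chow and 6-week HFD only.

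On 16-week HFD, Cyp2r1 had 13.9, 9.79 and 9.71 CPM with metformin, against 6.36, 7.89 and 5.38 CPM in basal livers (0.76 ± 0.26, adjusted p = 0.0288). Cyp2d10 had 1159, 851 and 911 CPM, against 836, 675 and 609 CPM (0.46 ± 0.14, adjusted p = 0.0135). Both calls were lost in 7 of 14 alternative fits, among them the fit with length and GC trends removed, which also ended that of Cyp2c40, and those without metformin replicate 1 or basal replicate 3. That of Cyp2r1 was also lost without basal replicate 1, and that of Cyp2d10 without basal replicate 2. The falls were in scarce genes: Cyp2d12 had 1.45, 0.721 and 1.15 CPM with metformin, against 3.09, 3.50 and 3.18 CPM (-1.56 ± 0.49, adjusted p = 0.0161, lost without replicate 2 of either group), and Cyp2j13 had 0.116, 0 and 0.0501 CPM, against 0.645, 0.272 and 0.397 CPM (-2.91 ± 0.71, adjusted p = 0.00260). On chow Cyp2u1 had 8.32, 5.99 and 5.72 CPM with metformin, against 13.2, 11.7 and 8.12 CPM in basal livers, and 1 metformin library reached into the basal range (-0.73 ± 0.18, adjusted p = 0.0218). That call was lost without metformin replicate 2 or 3 or basal replicate 1 or 2.

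Libraries with metformin differed from basal ones in other ways. Across genes, Spearman's correlation between a library's deviation and exon length was -0.607 to -0.271 with metformin and -0.219 to 0.149 basal on 16-week HFD, and -0.395 to -0.283 with metformin and 0.0856 to 0.168 basal on 6-week HFD. The 4 endothelial markers summed to 65.3 to 107 CPM with metformin and 109 to 195 CPM basal on 16-week HFD, and the 6 hepatocyte markers to 114879 to 133198 CPM with metformin and 83923 to 103813 CPM basal. On chow the correlation with exon length was -0.218 to -0.125 with metformin and -0.0112 to 0.115 basal. Hepatocyte markers there summed to 95894 to 103376 CPM with metformin and 87775 to 94334 CPM basal. Pancreatic acinar markers on chow summed to 8.28 to 97.9 CPM with metformin and 269 to 1654 CPM basal, while the endothelial sums overlapped. The part of these measures in the metformin results was not tested. On both HFD diets same-numbered metformin and basal libraries deviated together, so pairing by replicate number was tried in alternative fits. The metformin calls reported above come from the fit without a replicate block and ignore it. No label states such a pairing. In a fit of the 2 groups alone with the replicate as a block, 8 members were called on 6-week HFD and 0 on 16-week HFD, where 30 of all genes were. Without the block the same 2 groups on 16-week HFD gave 0 members and 14 genes, so none of the 7 calls there was made in a fit of those groups alone. The cause was not tested.

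The response to metformin differed between diets for Cyp2d12 (adjusted p = 0.0323, beside 1.16% of all genes). It had 1.05, 0.922 and 0.739 CPM with metformin on chow, against 0.451, 0.160 and 0.106 CPM basal, 1.23, 0.770 and 1.44 CPM on 6-week HFD, against 0.548, 0.374 and 0.691 CPM basal, and on 16-week HFD the lower values given above. The difference from the chow response was -3.24 ± 0.77 on 16-week HFD and -0.60 ± 0.78 on 6-week HFD, and 18 of 25 alternative fits kept the call, while DESeq2 gave this gene no adjusted p. It was lost without basal replicate 2 or 3 on either chow or 16-week HFD, without replicate 1 or 2 given metformin on chow, and without replicate 1 given metformin on 6-week HFD. All metformin libraries lay between the 2 extremes of the basal groups, 0.106 and 3.50 CPM.

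Under metformin the diet difference called fewer members. With 16-week HFD over chow 5 rose and none fell, beside 20.4% of all genes (11.2% higher and 9.25% lower). That share depended on the fit. Of all genes 2871 were called in the main fit, 285 with only these 2 groups in it, and 155 with a replicate block there too. Cyp2d40 had 93.4, 66.2 and 82.4 CPM on HFD, against 32.4, 32.8 and 22.4 CPM on chow, without overlap (1.47 ± 0.22, adjusted p = 2.35e-05). Cyp2a22, at 80.9, 44.4 and 73.8 CPM on HFD, against 25.4, 34.5 and 25.5 CPM on chow (1.22 ± 0.27, adjusted p = 0.00154), Cyp2u1 (1.14 ± 0.18), Cyp2d26 (0.47 ± 0.12) and Cyp2j5 (0.46 ± 0.16) were the others, and the call of Cyp2d26 was lost with length and GC trends removed and with only the groups compared in the fit. With 6-week HFD over chow Cyp2d40 (1.47 ± 0.22, adjusted p = 0.000132), Cyp2d26 (0.40 ± 0.12) and Cyp2u1 (0.59 ± 0.18) rose, beside 4.43% of all genes (2.27% higher and 2.16% lower), and alternative fits lost the calls of Cyp2d26 (9 of 14) and Cyp2u1 (10 of 14). Leaving out any 1 library of the pair except chow replicate 1 left 1 member called. The call of Cyp2j5 on 16-week HFD was lost without any 1 chow replicate or without HFD replicate 1 or 3. Cyp2j9, Cyp2d9 and Cyp2a4, which differed in basal livers, were not called here. Cyp2j9 had 14.7, 12.5 and 7.61 CPM on 16-week HFD, against 14.3, 15.0 and 19.6 CPM on chow, and in Cyp2a4 and Cyp2a5 the metformin libraries were widely spread, with Cyp2a5 at 1228, 468 and 1113 CPM on 16-week HFD, against 500, 1574 and 371 CPM on chow.

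Genes that work with these enzymes or mark their setting were counted from 7 lists. Of 14 tested genes for electron transfer and haem supply, 4 rose and none fell in basal livers on 16-week HFD (median log2 fold change 0.29), with the cytochrome b5 reductase Cyb5r3 at 1.04 ± 0.14 and the haem synthesis enzyme Alad at 0.92 ± 0.16. The 2 tested epoxide hydrolases, Ephx2 (-0.66 ± 0.15) and Ephx1 (-0.50 ± 0.17), which break down the epoxides that Cyp2 epoxygenases make, both fell. Of 24 transcription regulators 8 rose and none fell. The shares called either way in this list and in that for electron transfer and haem supply were close to 32.3%, that of all tested genes. Every call in these 2 lists was a rise, however, and only 16.0% of all tested genes were higher. The smallest adjusted p among the regulators belonged to the clock output factor Dbp (2.83 ± 0.52) and Cebpa (0.67 ± 0.13). Of 14 male-biased genes outside Cyp2, 10 fell and none rose (median -1.19, beside 16.3% of all genes lower), with the fatty acid hydroxylase Cyp4a12b at -3.58 ± 0.43, and of 11 tested female-biased genes 2 rose and 2 fell (median -0.44), with the peroxisomal oxidase Hao2 at 5.89 ± 0.87. Of 15 pericentral genes 4 rose and 2 fell (median 0.48), with Gulo at 1.08 ± 0.20, and of 13 periportal genes 2 rose and 6 fell (median -0.52), with the urea cycle enzyme Arg1 at -1.28 ± 0.12. The female-biased, pericentral and periportal counts stand beside 16.0% of all tested genes higher and 16.3% lower. The female-biased and pericentral lists were called about as often as all tested genes (32.3%). On 6-week HFD the periportal list again had 2 higher and 6 lower (median -0.69), while the male-biased list had 1 higher and 1 lower, beside 5.98% of all genes higher and 5.03% lower. With metformin on 16-week HFD, both epoxide hydrolases rose (Ephx2 0.47 ± 0.15) and 4 regulators fell and 2 rose, with Cebpb at -1.49 ± 0.27, beside 16.9% of all genes higher and 11.5% lower, while with metformin on chow and on 6-week HFD the epoxide hydrolase and male-biased lists had no call, beside 1.94% and 3.17% of all genes called.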

How the data were processed

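Liver mRNA (polyA, unstranded TruSeq kit, paired reads) was measured in 45 libraries. The authors deposited whole-number read counts per gene, and per the submitters' processing notes used TopHat 1.4.0, HTSeq and mm9. They also deposited normalized values (a signal scaled with CQN and DESeq2 1.0.18, per the submitters' processing notes and the labels), with chow and 16-week HFD in separate tables, so those were tested only within a table. Counts of 23227 genes (18.2 to 50.3 M reads a library) were filtered with filterByExpr (minimum count 10), leaving 14067 genes, 36 of them members, scaled by TMM, and fitted with edgeR 4.0.16 (R 4.3.3), 1 coefficient for each of the 14 groups. There were 15 comparisons by quasi-likelihood F test. Each had its own Benjamini-Hochberg adjustment over all genes, with calls under 0.05. CPM is counts per M reads with TMM scaling. Tests over several times give no direction. Alternatives used RLE factors, no filter, length and GC trends removed, a replicate block, only the groups compared, libraries left out, DESeq2 1.42.0 and limma 3.58.1. The scripts were tested on simulated data. Members and lists were chosen with earlier results of these data known. The rule was to give libraries one by one for the highest member per kb of each subfamily. It also covered up to 6 called members each way with the largest fold at 5 CPM or more. It was not followed throughout. Cyp2f2, Cyp2g1 and Cyp2s1 have only estimates in the comparisons. In the diet comparison after insulin, members have their lowest, median and highest library or, as with Cyp2c70, Cyp2c38, Cyp2c54, Cyp2r1 and Cyp2d10, only an estimate. Some members called in the diet comparisons under metformin also have only an estimate. Other members named, such as Cyp2d12, Cyp2j13, Cyp2d22, Cyp2a12 and Cyp2c50, were named after their values were seen. One regulator and a motif are not reported here. List genes named had the smallest adjusted p of their list. Same-numbered libraries deviated together (r of 0.125 to 0.240 for metformin and basal on 16-week HFD, 0.165 to 0.409 on 6-week HFD). Between other groups r of same-numbered libraries ran from -0.636 to 0.572. Metformin and basal libraries were treated as paired only in the fits with a replicate block, and the reported calls ignore the pairing. No label states this pairing. Metformin on 6-week HFD and basal chow, which differ in diet and drug, also deviated together (r of 0.132 to 0.293). No 2 libraries of a group agreed within sampling noise (chi-square per degree of freedom 9.40 or more).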

Additional observations from a re-analysis of the deposited data

Results flagged for a closer look

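Flags for single libraries were sought in the 1 group of more than 3, the 6 libraries at 30 min of insulin on 16-week HFD, where chance alone flags about 1 in 20 genes. Of 36 members, 3 had a library whose gap to its nearest neighbour was more than 0.625 of the group's range on log2(CPM + 0.1). Cyp2c69 was low in replicate 6 (4.91 CPM, gap 0.657 of the range). Cyp2d11 was low in replicate 4 (0.495 CPM, gap 0.666). Cyp2s1 was low in replicate 3 (0.0773 CPM, gap 0.678).

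In 2 members the response differed between diets. For Cyp2u1 the insulin response on 16-week HFD minus that on chow had an interaction adjusted p of 0.0381. Its 15 min estimate against basal was 0.27 ± 0.17 on HFD and -0.66 ± 0.17 on chow, so the fall on chow was the larger change. For Cyp2d12 the metformin response by diet had an adjusted p of 0.0323, with metformin livers lower than basal on 16-week HFD and higher than basal on chow.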

How the results depend on the processing

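Among the values for single members under the alternatives, 10349 kept their side of the threshold, 188 gained a call, 241 lost one and none reversed. Reversal was a change of sign with a call in either fit. It could not be scored for the tests of several contrasts at once, which give no direction, and sign changes without a call were not counted. Counts of members called moved past 1.5 times the reported count as follows. With only the groups compared in the fit, the count was 8 for 6-week HFD against chow (5 reported), 3 for 16-week HFD under metformin (5 reported), 5 for metformin on 6-week HFD (3 reported), 0 for metformin on 16-week HFD (7 reported), 0 for any time of insulin on chow (1 reported) and on 16-week HFD (3 reported), and 2 for 120 min on chow (1 reported). With a replicate block in that fit, an alternative chosen after seeing the data, the counts were 13 for 6-week HFD against chow, 1 for 16-week against 6-week HFD (5 reported), 2 and 5 under metformin for 16-week and 6-week HFD against chow (5 and 3 reported), 5, 8 and 0 for metformin on chow, 6-week and 16-week HFD (3, 3 and 7 reported), 0 and 11 for insulin on chow and 16-week HFD, 3 for 120 min on chow and 5 for the insulin response by diet (1 reported). Larger counts did not always hold the reported members. Of the 5 reported for 6-week HFD against chow, 2 were among the 8 and 4 among the 13. The 2 and 3 for 120 min on chow held 0 of the reported. The 11 for insulin on 16-week HFD held 2, while the 5 and 8 for metformin on 6-week HFD each held 3. With the replicate block over 42 libraries (all fits with a block lack replicates 4 to 6 at 30 min on 16-week HFD), 14 members were called for insulin on 16-week HFD and 5 for the insulin response by diet; with length and GC trends also removed, 14 and 5, 9 for 6-week HFD against chow and 2 for the metformin response by diet (1 reported). The block moved no other count past 1.5 times, and outside the metformin pairs named above the libraries of the groups compared share only a number: 15 and 120 min libraries also deviated together (r of 0.216 to 0.572 on 16-week HFD and 0.104 to 0.346 on chow), but neither time did so with basal for all 3 numbers. Without replicates 4 to 6 at 30 min, 15 and 7 members were called for insulin on 16-week HFD and the insulin response by diet. DESeq2 gave 7 and 2 for these, and limma on the deposited normalized values gave 0 for any time of insulin on each diet. Without a filter, 1 member was called for 6-week HFD against chow under metformin. The cause of these moves was not tested.

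With 1 library left out, the counts ranged from 8 to 14 (16-week HFD against chow), 3 to 5 (6-week HFD against chow), 3 to 5 (16-week against 6-week HFD), 21 to 26 (after insulin), 4 to 7 and 1 to 2 (16-week and 6-week HFD under metformin), 0 to 3, 2 to 3 and 4 to 8 (metformin on chow, 6-week and 16-week HFD), 1 to 1 and 1 to 5 (insulin on chow and 16-week HFD), 0 to 1 and 0 to 0 (120 min on chow and 16-week HFD) and 0 to 1 for each response by diet. The diet comparisons were not run on the deposited normalized values, which were scaled separately for each diet. Members under 1 CPM, such as Cyp2g1, Cyp2s1 and Cyp2j13, have wide errors at these depths.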
